A study of Rattus norvegicus with 24 samples.

Results

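In all, 10 genes of the granin family and of prohormone processing were described in rat PC12 cells by RNA sequencing. They were chosen by their symbols in the count tables. They are the granins and granin-like precursors Chga, Chgb, Scg2, Scg3, Scg5 and Vgf, the peptide precursor Npy, and the processing enzymes Pcsk1, Pcsk2 and Cpe. All 10 were found among the 17055 genes listed, and 7 of the 10 passed the filter on low counts, against 9994 genes in all. PC12 is a line from a pheochromocytoma, a tumour of the chromaffin cells of the adrenal medulla. In the labels, a stable line that expresses human α1ACT, a nuclear protein read from the 3′ part of the CACNA1A transcript, stands beside a stable line with the empty pCDNA3 vector, all at passages 18 to 20. Each line was labelled as taken at 6 h, 24 h, 3 d and 10 d, which gives 8 groups of 3 libraries and 24 libraries in all. What happened at time 0 is not given in the sources used here. Each condition is 1 stable line, so a difference between them cannot be told apart from other differences between these lines. The labels call the 3 libraries of a group biological replicates without naming separate cultures, and p-values therefore reflect only their spread, which may be technical.

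The labels and the names of the deposited files disagree for 18 of the 24 libraries, 12 of them in the line as well as in the time. Sample titles use Q11 for α1ACT and P for vector, and file names use the same codes. The α1ACT groups of 6 h, 24 h, 3 d and 10 d came from files named P at 24 h, P at 10 d, Q11 at 24 h and Q11 at 10 d. The vector groups of those times came from files named P at 6 h, P at 3 d, Q11 at 6 h and Q11 at 3 d. The replicate numbers of labels and file names matched in all 24 libraries. Under the file names the labelled line differences are therefore differences between times within a line. The labelled differences of 3 d against 6 h and of 10 d against 24 h are differences between Q11 and P at 1 time. Groups below are those of the labels unless the file names are mentioned, and neither reading was tested here against an independent marker of the transgene.

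Granins are acidic proteins of dense-core secretory granules, the vesicles in which neuroendocrine cells store amines and peptides until a stimulus releases them. They aggregate with calcium in the trans-Golgi network, help granules to form, and are themselves cut into peptides. Prohormone convertases cut precursors at pairs of basic residues, and carboxypeptidase E trims the basic residues that remain. Chromaffin cells are a classical source of these proteins, and Vgf was named as a gene that nerve growth factor induces in PC12 cells.

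Promoter sequences are shown for the 3 genes on which the results turn, Vgf, Scg2 and Chgb, because Vgf had the widest range of the 10 genes over the groups and Chgb and Scg2 moved together. They are RefSeq sequences of assembly GRCr8, from 250 bases before to 50 bases after the annotated start of each gene, and 8 of the 10 genes had an entry. The motif searched on both strands was the cAMP response element TGACGTCA, a palindrome, and its 5-base part TGACG, which reads CGTCA on the other strand and is contained in the full element. Matches are in capitals. Vgf lies at chr12:25276971-25277270 on the minus strand, with the full element at -90 to -83 from the start. Scg2 lies at chr9:88256817-88257116 on the minus strand, with the full element at -123 to -116. Chgb lies at chr3:140496462-140496761 on the plus strand and held neither form in this window.
Vgf: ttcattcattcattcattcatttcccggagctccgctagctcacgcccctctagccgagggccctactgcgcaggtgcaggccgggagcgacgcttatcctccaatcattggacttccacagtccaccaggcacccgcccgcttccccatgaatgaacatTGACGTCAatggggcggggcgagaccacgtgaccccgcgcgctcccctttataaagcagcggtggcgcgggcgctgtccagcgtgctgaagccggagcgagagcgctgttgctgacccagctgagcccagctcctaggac
Scg2: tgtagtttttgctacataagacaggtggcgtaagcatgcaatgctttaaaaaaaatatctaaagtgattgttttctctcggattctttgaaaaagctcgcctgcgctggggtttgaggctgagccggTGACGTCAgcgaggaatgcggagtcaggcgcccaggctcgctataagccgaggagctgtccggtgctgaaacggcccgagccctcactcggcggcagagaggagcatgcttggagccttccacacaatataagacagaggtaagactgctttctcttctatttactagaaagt
Chgb: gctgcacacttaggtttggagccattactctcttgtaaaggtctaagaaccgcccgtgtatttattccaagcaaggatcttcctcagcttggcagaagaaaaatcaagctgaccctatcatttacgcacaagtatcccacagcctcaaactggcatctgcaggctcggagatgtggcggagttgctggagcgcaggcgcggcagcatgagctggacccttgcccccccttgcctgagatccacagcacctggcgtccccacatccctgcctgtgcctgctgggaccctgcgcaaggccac
The full element was found in 612 of 33469 RefSeq promoters of this length (1.83%), and the 5-base form in 7097 (21.2%). Outside the full element, the 5-base form was found once in Scg3 (from -69), Pcsk2 (from -57) and Cpe (from -173), and in Scg5 at -7 and at 14. Npy held neither form in its window. A match is a run of letters and not a measured binding site.

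Libraries held between 8679560 and 14486248 counts on genes (median 11663500), so 3 counts stood at 0.207 to 0.346 CPM, the count of a gene scaled to a fixed library total. Chgb, chromogranin B, had more counts than any other gene in 20 of 24 libraries and was second in the other 4. Scg2, secretogranin II, ranked between 3 and 5, and Chga, chromogranin A, between 8 and 17. These ranks are of counts not scaled for transcript length, and no level is compared between genes here. Together the 10 genes took 1.82% to 2.60% of the counts on genes. The share was highest in the α1ACT groups of 24 h (2.48% ± 0.15) and 10 d (2.43% ± 0.04), against 2.14% ± 0.19 in α1ACT 6 h, 2.00% ± 0.07 in α1ACT 3 d and 1.89% to 1.99% in the vector groups (SD, n = 3 each). Without Chgb the group means ran from 0.931% to 1.11%. All RNA was bulk, so fewer cells of a kind and less RNA per cell cannot be told apart.

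**Figure D1:**
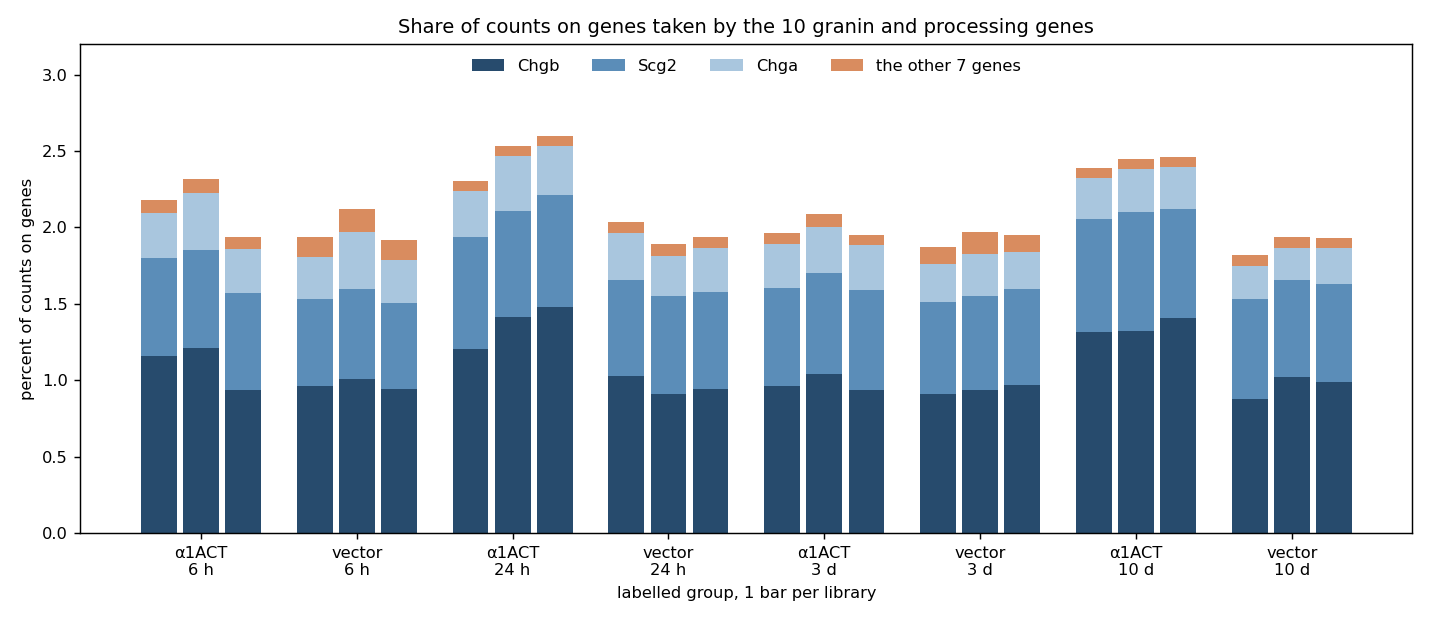
Percent of counts on genes taken by Chgb, Scg2, Chga and the other 7 genes, 1 stacked bar per library, with the labelled groups on the x axis (α1ACT left of vector at each time). The libraries of α1ACT 24 h and α1ACT 10 d are the tallest groups by mean, at 2.48% and 2.43%, and most of their extra height lies in the Chgb segment.

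Of the 10 genes, 3 were at or near 0 counts. Pcsk1 and Pcsk2, the prohormone convertases of the regulated secretory pathway, had 0 counts in all 24 libraries, whose 276135956 counts allow a level of up to 0.0109 CPM. Npy, the precursor of neuropeptide Y, had 1 count, in replicate 2 of α1ACT 6 h, and 0 in the other 23 libraries. Cpe, carboxypeptidase E, was detected in all 24 libraries at 29 to 95 counts. These limits cover counting error only, and whether the authors' annotation covered the transcripts of the genes at 0 was not tested. Among other genes of the pathway, the convertases Furin and Pcsk7, the amidating enzyme Pam and carboxypeptidase D (Cpd) were counted in every library. Pcsk1n, the precursor of an inhibitor of PCSK1, had 78 counts in all.

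Vgf, a precursor of several secreted peptides, varied most among the 10 genes, with a 9.60-fold span between its highest and lowest group means. Its levels in replicates 1 to 3 were 331, 382 and 239 CPM in α1ACT 6 h, against 813, 1002 and 790 CPM in vector 6 h. They were 78.4, 103 and 89.7 CPM in α1ACT 24 h, against 145, 122 and 114 CPM in vector 24 h. The groups did not overlap at either time. At 3 d the levels were 237, 318 and 177 CPM in α1ACT, against 617, 890 and 567 CPM in vector. At 10 d they were 95.8, 91.7 and 118 CPM in α1ACT, against 89.5, 114 and 98.5 CPM in vector. Vector 6 h and vector 3 d stood highest and overlapped each other, α1ACT 6 h and α1ACT 3 d came next and overlapped each other, and the 4 groups of 24 h and 10 d came last.

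Relative to vector, Vgf was 2.74-fold lower in α1ACT at 6 h (log2 -1.45 ± 0.18 SE, edgeR adjusted p = 5.15e-07) and 2.83-fold lower at 3 d (-1.50 ± 0.18, adjusted p = 4.10e-07). At 24 h it was 1.41-fold lower (-0.49 ± 0.19, adjusted p = 0.0328), and at 10 d its difference of 0.01 ± 0.20 did not pass (adjusted p = 0.956). The call at 24 h was lost with DESeq2 (adjusted p = 0.0595), without vector replicate 1 (0.147), α1ACT replicate 1 (0.134) or α1ACT replicate 3 (0.0682) of that time, and without replicate 1 of every group (0.448). Within the labelled lines, Vgf was 3.51-fold lower at 24 h than at 6 h in α1ACT (-1.81 ± 0.19, adjusted p = 3.21e-08) and 6.84-fold lower in vector (-2.77 ± 0.19, adjusted p = 2.89e-12). The inequality of its line difference over the 4 labelled times passed its own test (adjusted p = 2.43e-05).

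Arranged by the file names, the same Vgf values stand in time order. In Q11 the means were 691 ± 174, 244 ± 71.1, 101 ± 12.5 and 102 ± 14.1 CPM at 6 h, 24 h, 3 d and 10 d. In P they were 868 ± 116, 317 ± 72.4, 127 ± 16.4 and 90.5 ± 12.5 CPM at those times (SD, n = 3 each). Successive times did not overlap in P, and in Q11 they overlapped only between 3 d and 10 d. The Q11 and P differences at the 4 file-name times were -0.33 ± 0.17, -0.38 ± 0.18, -0.33 ± 0.19 and 0.17 ± 0.20 on the log2 scale, and none passed (edgeR adjusted p between 0.306 and 0.709). Their inequality over those times did not pass either (adjusted p = 0.590). Without replicate 2 of every group, the first 3 of these differences passed (adjusted p = 0.0314, 0.0351 and 0.0286) and so did the inequality (0.0324).

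**Figure D2:**
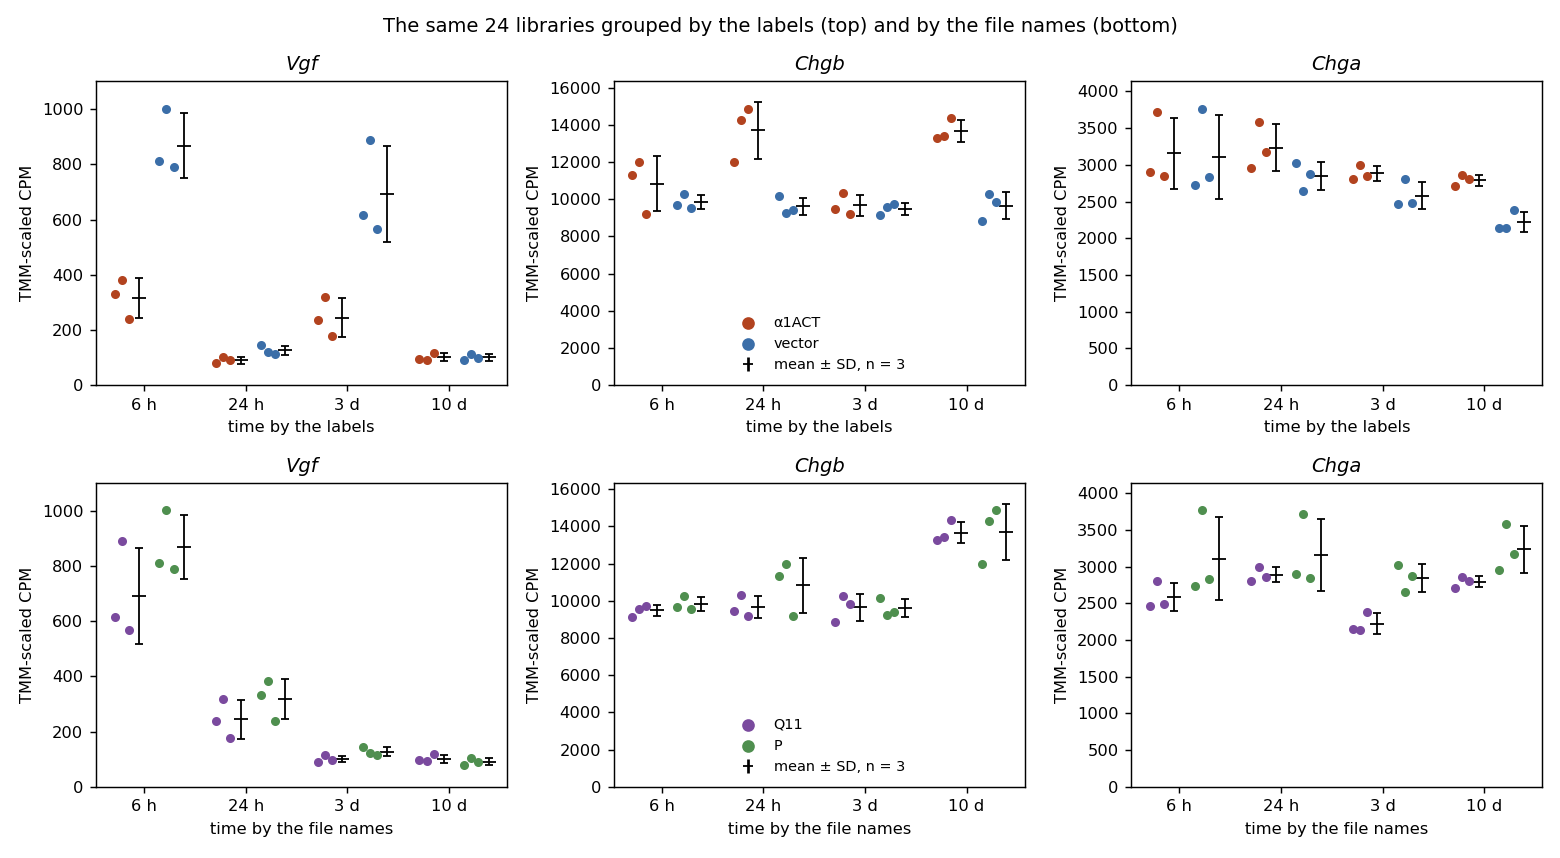
TMM-scaled CPM of Vgf, Chgb and Chga in the same 24 libraries, with time on the x axis by the labels (top row, α1ACT left of vector) and by the file names (bottom row, Q11 left of P). Points are libraries and black bars are mean ± SD of 3. By the file names Vgf stands highest at 6 h (691 and 868 CPM) and lowest at 3 d and 10 d, and Chgb has its highest means at 10 d (13677 and 13708 CPM).

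Chgb and Scg2 had their highest means in the α1ACT groups of 24 h and 10 d. Chgb, which binds calcium and is a main soluble protein of chromaffin granules, had 11976, 14279 and 14867 CPM in α1ACT 24 h, against 10157, 9264 and 9407 CPM in vector 24 h. At 10 d it had 13274, 13409 and 14348 CPM in α1ACT, against 8839, 10259 and 9853 CPM in vector. The groups did not overlap at either time, and the line difference was 1.43-fold at 24 h (log2 0.51 ± 0.08, edgeR adjusted p = 8.17e-06) and 1.42-fold at 10 d (0.50 ± 0.08, adjusted p = 9.81e-06). At 6 h Chgb averaged 10830 ± 1466 CPM in α1ACT and 9832 ± 377 CPM in vector, with overlapping libraries (0.14 ± 0.08, adjusted p = 0.179, and 0.0123 without α1ACT 6 h replicate 3). At 3 d it averaged 9663 ± 587 CPM in α1ACT and 9484 ± 310 CPM in vector (0.03 ± 0.08, adjusted p = 0.821). The inequality of its line difference over the labelled times passed (adjusted p = 0.000766) and was lost without replicate 3 of every group (0.0633). Read by the file names, the groups with the highest means, 13677 ± 585 CPM in Q11 and 13708 ± 1528 CPM in P, are both of 10 d, and the inequality of the Q11 and P differences did not pass (adjusted p = 0.788).

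Scg2, the precursor of secretoneurin, had 7274, 6982 and 7338 CPM in α1ACT 24 h, against 6233, 6516 and 6242 CPM in vector 24 h (1.14-fold, log2 0.19 ± 0.04, edgeR adjusted p = 0.000674). At 10 d it had 7396, 7833 and 7236 CPM in α1ACT, against 6549, 6334 and 6378 CPM in vector (1.17-fold, 0.22 ± 0.04, adjusted p = 8.84e-05). Neither pair of groups overlapped, while the call at 24 h was lost without replicate 3 of every group (0.0637). Read by the file names, the groups with the highest Scg2 means, 7488 ± 309 CPM in Q11 and 7198 ± 190 CPM in P, are both of 10 d. At 6 h Scg2 averaged 6265 ± 80.6 CPM in α1ACT and 5823 ± 153 CPM in vector. That difference of 0.11 ± 0.04 stood at the threshold (adjusted p = 0.0508) and passed without vector 6 h replicate 2 (0.0279) or α1ACT 6 h replicate 3 (0.0472), with library sizes alone (0.00545) and with DESeq2 (0.0178). At 3 d it averaged 6423 ± 137 CPM in α1ACT and 6207 ± 149 CPM in vector (0.05 ± 0.04, adjusted p = 0.388). Between 24 h and 6 h, Scg2 was higher at 24 h in α1ACT (0.20 ± 0.04, adjusted p = 0.000505) and in vector (0.12 ± 0.04, adjusted p = 0.0177). The call in α1ACT was lost without replicate 3 of every group (0.0587). The one in vector was lost without vector 6 h replicate 1 (0.0555), vector 6 h replicate 3 (0.0758) or vector 24 h replicate 2 (0.0664), and without replicate 1 (0.164) or 3 (0.171) of every group. Chgb was higher at 24 h than at 6 h in α1ACT (0.34 ± 0.08, adjusted p = 0.00156, with overlapping libraries, and 0.187 without replicate 3 of every group), and in vector its difference was -0.03 ± 0.08 (adjusted p = 0.749).

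The sum of markers of chromaffin cells, most of it Th, the rate-limiting enzyme of catecholamine synthesis, moved with Chgb and Scg2. Its members did not all do so. Slc18a1 was lower in α1ACT at 24 h (log2 -0.38 ± 0.11, edgeR adjusted p = 0.00311) and did not pass at 10 d (-0.18 ± 0.11). Dbh did not pass at 24 h (-0.16 ± 0.12) or 10 d (0.20 ± 0.13). The other members are not given singly here. All 10 markers found in the files were detected, Pnmt with 1 count only, and their sum was 10583 ± 485 CPM in α1ACT 24 h and 11523 ± 326 CPM in α1ACT 10 d. In the other 6 groups its means ran from 8117 to 8821 CPM. Their part in the Chgb and Scg2 differences was not tested. Across the 8 group means the correlation of Chgb with Scg2 was 0.88, and across the 24 libraries 0.78. It is a description, since all levels share the scaling of their libraries.

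Chga, the precursor of vasostatin and catestatin, spanned 1.46-fold between its group means. It had 2707, 2856 and 2809 CPM in α1ACT 10 d, against 2146, 2136 and 2383 CPM in vector 10 d, the lowest group. The groups of 10 d did not overlap, and Chga was 1.26-fold higher in α1ACT (log2 0.33 ± 0.10, edgeR adjusted p = 0.00650). It averaged 3155 ± 488 CPM in α1ACT and 3109 ± 570 CPM in vector at 6 h, 3234 ± 318 and 2849 ± 189 CPM in those lines at 24 h, and 2886 ± 102 and 2582 ± 190 CPM at 3 d. None of these 3 line differences passed (adjusted p between 0.124 and 0.885), while in fits of only the 6 libraries compared Chga passed at 24 h (0.0499) and at 3 d (0.0224). In vector, Chga was 1.28-fold lower at 10 d than at 24 h (-0.36 ± 0.10, adjusted p = 0.0284). That call was lost without vector 24 h replicate 1 (0.137) or 3 (0.0949), vector 10 d replicate 1 (0.0808) or 2 (0.119), and replicate 1 (0.306) or 3 (0.169) of every group. This is Q11 against P at 3 d in the file names, and Chga was lower in Q11 at each of the 4 file-name times. In the mean of those 4 differences, a comparison added after seeing the data, Chga was 1.18-fold lower (-0.24 ± 0.05, adjusted p = 0.00147).

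In ratios within a library the scaling cancels. The counts of Chgb per count of Chga averaged 4.90 ± 0.21 in α1ACT 10 d and 4.35 ± 0.39 in vector 10 d. At 24 h they averaged 4.25 ± 0.39 in α1ACT and 3.38 ± 0.11 in vector, and at 6 h 3.45 ± 0.39 in α1ACT and 3.22 ± 0.43 in vector (SD, n = 3 each). At 3 d the order was the other way, with 3.35 ± 0.11 in α1ACT and 3.68 ± 0.26 in vector. The counts of Vgf per count of Chgb averaged 0.0290 ± 0.0029 in α1ACT 6 h and 0.0881 ± 0.0083 in vector 6 h, against 0.00660 ± 0.00060 in α1ACT 24 h and 0.0132 ± 0.0011 in vector 24 h. At 3 d they averaged 0.0250 ± 0.0058 in α1ACT and 0.0729 ± 0.0181 in vector, and at 10 d 0.00743 ± 0.00071 in α1ACT and 0.0104 ± 0.00062 in vector.

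**Figure D3:**
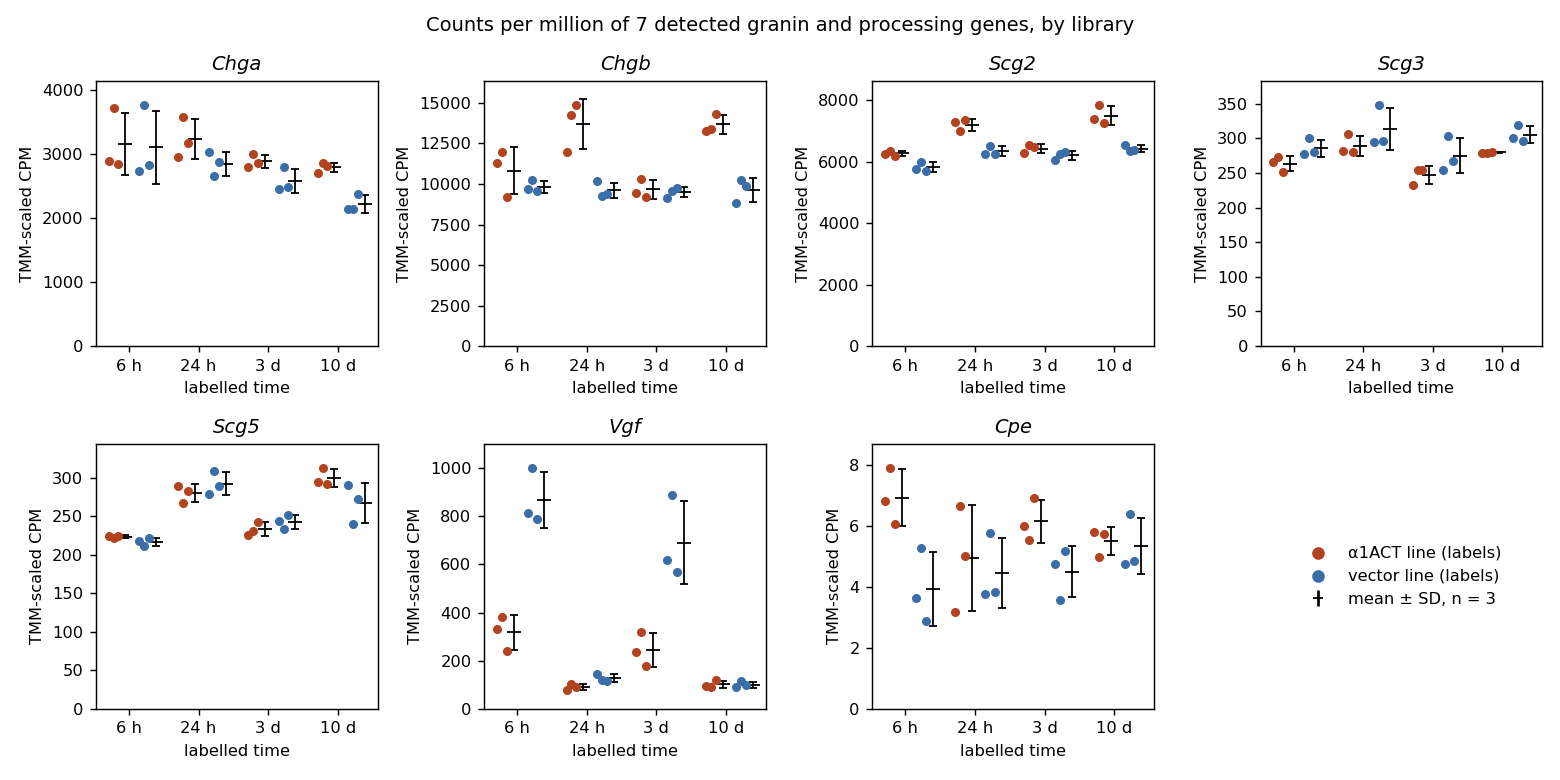
TMM-scaled CPM of the 7 detected and tested genes, 1 panel each with its own y axis from 0. The x axis is the labelled time, points are libraries (α1ACT left of vector) and black bars are mean ± SD of 3. Vgf has its highest means in vector 6 h (868 CPM) and vector 3 d (691 CPM), and Chgb and Scg2 have theirs in α1ACT 24 h and α1ACT 10 d.

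Scg5 (7B2), a chaperone and inhibitor of PCSK2, was higher at 24 h than at 6 h in both labelled lines. In α1ACT it had 290, 268 and 283 CPM at 24 h, against 224, 221 and 225 CPM at 6 h (1.26-fold, log2 0.33 ± 0.06, edgeR adjusted p = 4.01e-05). In vector it had 278, 309 and 290 CPM at 24 h, against 218, 211 and 222 CPM at 6 h (1.35-fold, 0.43 ± 0.06, adjusted p = 3.13e-07). In neither line did the libraries of 24 h and 6 h overlap. In the file names these are 10 d against 24 h and 3 d against 6 h, both in P. Between the lines, Scg5 passed only at 10 d, with 300 ± 11.4 CPM in α1ACT and 268 ± 26.0 CPM in vector (0.16 ± 0.06, adjusted p = 0.0151). That call was lost without vector 10 d replicate 2 (0.164) or α1ACT 10 d replicate 2 (0.0835), in a fit of these 6 libraries alone (0.0774), and without replicate 2 (0.326) or 3 (0.0591) of every group. In vector its difference of 10 d against 24 h (-0.12 ± 0.06, adjusted p = 0.176) passed without vector 10 d replicate 1 (0.0430). Its partner Pcsk2 had no count in any library.

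Scg3, which binds Chga and cholesterol-rich granule membrane, spanned 1.27-fold between its group means, which lay between 247 and 313 CPM. It averaged 263 ± 10.6 CPM in α1ACT and 286 ± 12.4 CPM in vector at 6 h, and 289 ± 14.7 and 313 ± 30.2 CPM in those lines at 24 h. At 3 d it averaged 247 ± 12.5 CPM in α1ACT and 275 ± 25.8 CPM in vector, and at 10 d 280 ± 0.59 CPM in α1ACT and 305 ± 12.8 CPM in vector. It was the lower of each pair in α1ACT, and no single time passed (edgeR adjusted p = 0.150, 0.131, 0.0599 and 0.0957). In the mean over the 4 times, a comparison added after seeing the data, it was 1.09-fold lower (log2 -0.13 ± 0.03, adjusted p = 0.00112). By the file names, each of these 4 differences is a later against an earlier time within a line. At 3 d the replicate block in edgeR gave -0.15 with an adjusted p of 0.0136. The replicate numbers of these 2 groups went together by the cut-off used here, and those of no other comparison did. The block is nevertheless a term over all libraries, so this value is not that of a paired test of the 2 groups. Scg3 at 3 d also passed without vector 3 d replicate 1 (0.0143). At 10 d it passed with library sizes alone (0.0418) and in a fit of only the groups compared (0.0384). Its difference of 24 h against 6 h in vector (0.13 ± 0.06, adjusted p = 0.0808) passed without vector 24 h replicate 1 (0.0445) and with library sizes alone (0.0334).

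Cpe had 6.82, 7.91 and 6.07 CPM in α1ACT 6 h, against 3.64, 5.29 and 2.90 CPM in vector 6 h, with no overlap. It was 1.74-fold higher in α1ACT (log2 0.80 ± 0.23, edgeR adjusted p = 0.00677), a call lost without replicate 1 (0.0753) or 3 (0.0841) of every group. In the file names this is 24 h against 6 h in P. The summed fibroblast list, most of it Dcn, was also higher in α1ACT at 6 h, at 6.99 ± 0.31 CPM against 2.05 ± 0.63 CPM in vector. Its part in the Cpe difference was not tested. Of the 6 genes of that list, Col1a2 and Lum were at 0 in all libraries. At 24 h Cpe averaged 4.95 ± 1.75 CPM in α1ACT and 4.47 ± 1.14 CPM in vector. At 10 d Cpe averaged 5.51 ± 0.47 CPM in α1ACT and 5.33 ± 0.92 CPM in vector. At 3 d it averaged 6.16 ± 0.70 CPM in α1ACT and 4.51 ± 0.83 CPM in vector. None of these 3 passed (adjusted p between 0.125 and 0.860). Between 24 h and 6 h in α1ACT its difference of -0.50 ± 0.22 did not pass (adjusted p = 0.0705), but did without α1ACT 24 h replicate 2 (0.0131).

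Over the whole table, differences between the groups were common, and the counts of the 7 tested genes are read against that background. In α1ACT against vector, 2 of 7 passed at 6 h (41.6% of all tested genes), 3 of 7 at 24 h (55.5%), 1 of 7 at 3 d (39.4%) and 4 of 7 at 10 d (58.9%). At 6 h Cpe was higher and Vgf lower, at 24 h Chgb and Scg2 were higher and Vgf lower, at 3 d Vgf was lower, and at 10 d Chga, Chgb, Scg2 and Scg5 were higher. The medians of the 7 log2 differences were 0.04, 0.16, 0.03 and 0.16 at the 4 times, beside 0.0031, -0.02, 0.01 and 0.0069 for all genes tested. At 3 d, 2 of 7 passed with the replicate block, with RLE factors, with DESeq2 and with no filter, and 3 of 7 in a fit of those 6 libraries alone, Scg3 being gained in each and Chga as well in the fit of 6.

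Between 24 h and 6 h, 4 of 7 genes passed in α1ACT (44.1% of all genes) and 3 of 7 in vector (61.5%). Between 3 d and 6 h none of the 7 passed in α1ACT (1.06%) or in vector (1.47%), and between 10 d and 24 h none passed in α1ACT (4.62%) and 1, Chga, in vector (7.44%). With DESeq2 none of the 7 passed either in the 3 comparisons without a call. At an unadjusted edgeR p under 0.05, they held 1 gene for 3 d against 6 h in α1ACT (Vgf), 3 in vector (Chga, Scg2 and Scg5) and 1 for 10 d against 24 h in α1ACT (Chga). In the mean of the line difference over the 4 labelled times 6 of 7 passed, against 66.3% of all genes. By the file names, this is a mean of differences between times within a line. Chga (0.17 ± 0.05), Chgb (0.30 ± 0.04), Cpe (0.37 ± 0.12) and Scg2 (0.14 ± 0.02) were higher in α1ACT, Scg3 (-0.13 ± 0.03) and Vgf (-0.86 ± 0.09) lower, and Scg5 did not pass (0.02 ± 0.03). The call of Cpe was lost without replicate 3 of every group (adjusted p = 0.111). In the mean of both labelled comparisons of 3 d against 6 h and both of 10 d against 24 h, 1 of 7 passed, Chga, against 15.6% of all genes. There Vgf (-0.22 ± 0.09, adjusted p = 0.117) passed without α1ACT 6 h replicate 3 (0.0496), α1ACT 3 d replicate 2 (0.0286) or vector 3 d replicate 2 (0.0308).

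Any difference among the 8 groups, a test that does not depend on how the groups are named, passed for 7 of 7 genes and for 89.5% of all genes. Adjusted p values of edgeR ran from 1.78e-15 for Vgf to 0.0321 for Cpe. The call of Cpe was lost without vector 6 h replicate 1 (0.0593) or 3 (0.0569), α1ACT 6 h replicate 1 (0.0743) or 2 (0.0963), α1ACT 3 d replicate 3 (0.0552), and replicate 1 (0.256) or 3 (0.250) of every group. The inequality of the line difference over the labelled times passed for 2 of 7, Vgf and Chgb, and for 57.7% of all genes, and with RLE factors or DESeq2 for 4 of 7, Scg2 and Scg5 being added. The inequality of the Q11 and P differences over the file-name times passed for 0 of 7 and for 0.04% of all genes, which is 4 genes. At an unadjusted p under 0.05 it held 1 of 7, Scg5, and with DESeq2 0 of 7 passed. Without replicate 2 of every group, 2 of 7 passed it, Chga (0.0215) and Vgf (0.0324).

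The inequality over the labelled times depended on single libraries for 4 more genes. Scg2 (adjusted p = 0.0625) passed without α1ACT 6 h replicate 1 (0.0357), vector 24 h replicate 2 (0.0393), vector 3 d replicate 1 (0.0223), vector 10 d replicate 1 (0.0222) or α1ACT 10 d replicate 2 (0.0476) or 3 (0.0436), and without replicate 2 of every group (0.0382). Scg5 (0.0511) passed without α1ACT 24 h replicate 1 (0.0463), vector 24 h replicate 1 (0.0384), α1ACT 3 d replicate 3 (0.0440), vector 3 d replicate 2 (0.0402) or vector 10 d replicate 1 (0.00707), and without replicate 1 of every group (0.0446). Chga (0.284) passed without α1ACT 6 h replicate 2 (0.0494) or replicate 2 of every group (0.0141), and Cpe (0.177) without vector 6 h replicate 2 (0.0499). Leaving out replicate 2 of every group also added Scg2 at 6 h (0.0140) and Chga at 3 d (0.00348) between the lines. For 3 d against 6 h in vector it added Chga (0.0490) and Scg5 (0.0357), and for 24 h against 6 h in α1ACT Cpe (0.00930). In the mean of the 4 labelled comparisons of a later with an earlier time it added Cpe (0.0181) and Vgf (0.00670).

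**Figure D4:**
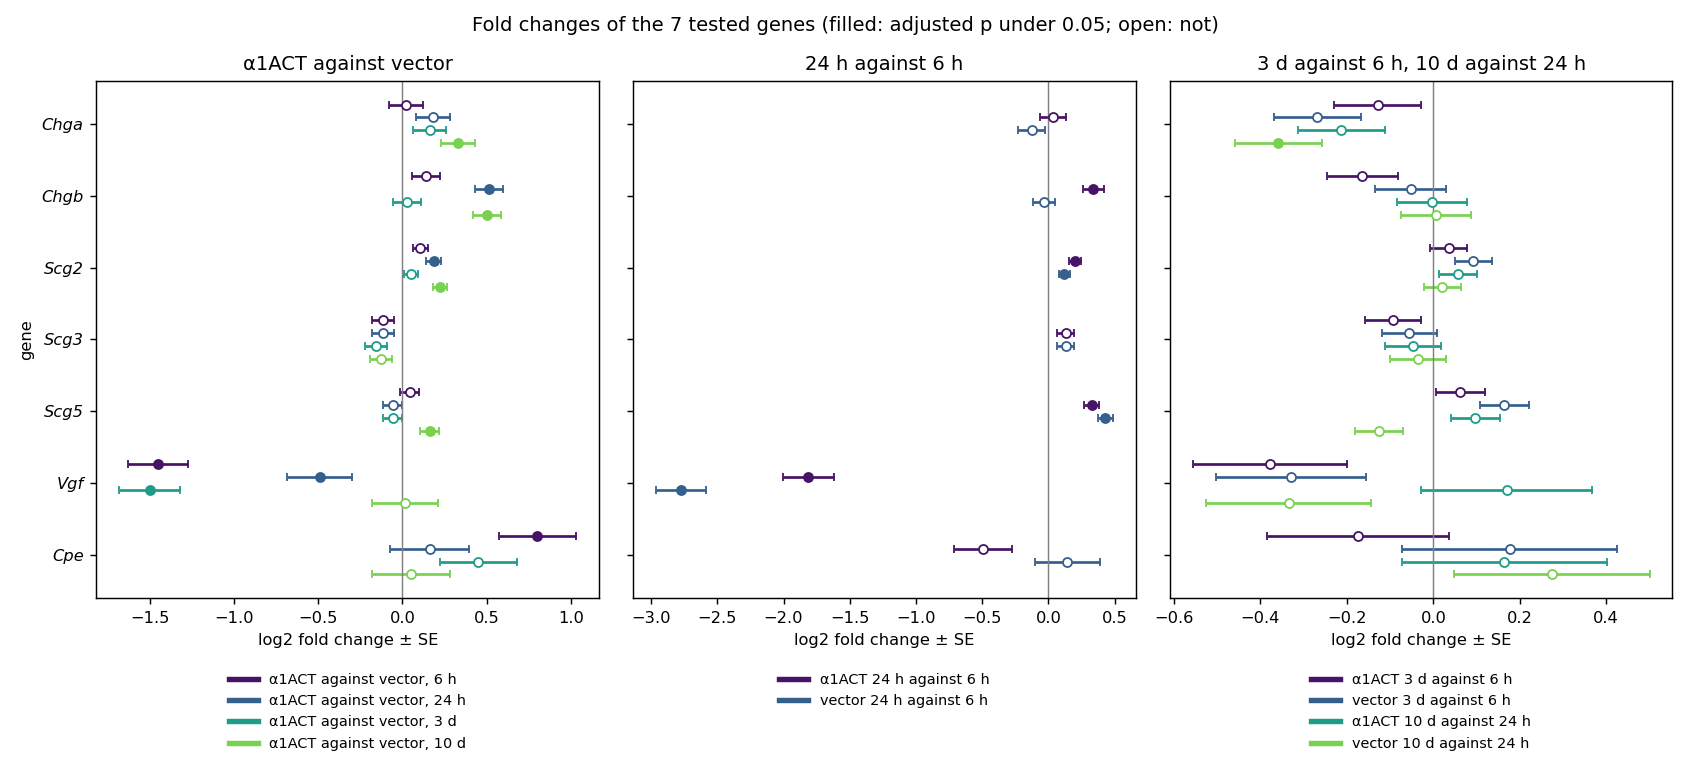
Log2 fold changes ± SE of edgeR for the 7 tested genes in α1ACT against vector (left), 24 h against 6 h (middle) and 3 d against 6 h with 10 d against 24 h (right), with a different x range in each panel. Filled points passed an adjusted p of 0.05 and open points did not. Vgf reaches -2.77 in the middle panel, and only 1 point of the right panel is filled, Chga in vector.

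The rest of the secretory pathway was described from a list of 77 genes, of which 70 were in the files and 44 were tested. Of 29 other peptide precursors 8 were tested and 8 had no count in any library, among them Gal, Sst and Cck. Of the 44 tested genes, 36.4% passed in α1ACT against vector at 6 h, 40.9% at 24 h, 43.2% at 3 d and 36.4% at 10 d, against 41.6%, 55.5%, 39.4% and 58.9% of all genes. By direction, 9 were higher and 7 lower in α1ACT at 6 h, 3 higher and 15 lower at 24 h, 12 higher and 7 lower at 3 d, and 3 higher and 13 lower at 10 d. Of all genes, 2045 were higher and 2117 lower at 6 h, 2662 higher and 2880 lower at 24 h, 1991 higher and 1943 lower at 3 d, and 2950 higher and 2936 lower at 10 d. Their median log2 differences were 0.09, -0.13, 0.03 and -0.03, beside the medians for all genes given above. Between 24 h and 6 h, 5 were higher and 18 lower in α1ACT, and 14 higher and 11 lower in vector. Between 3 d and 6 h, 2 were higher and 1 lower in α1ACT and likewise in vector. Between 10 d and 24 h, 2 were higher and 1 lower in α1ACT, and 8 higher and 4 lower in vector. These are 52.3% and 56.8% of the 44 for 24 h against 6 h in α1ACT and in vector (44.1% and 61.5% of all genes). They are 6.8% in each line for 3 d against 6 h (1.06% and 1.47%), and 6.8% and 27.3% for 10 d against 24 h (4.62% and 7.44%). Of all genes, 2170 were higher and 2239 lower at 24 h than at 6 h in α1ACT, and 3161 higher and 2988 lower in vector. For 3 d against 6 h, 80 were higher and 26 lower in α1ACT, and 114 and 33 in vector. For 10 d against 24 h, 221 were higher and 241 lower in α1ACT, and 429 and 315 in vector.

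Among the genes of vesicle release, Rab3a, a small GTPase of secretory vesicles, had 40.6 ± 2.56 CPM in α1ACT 6 h and 16.3 ± 1.35 CPM in vector 6 h (log2 1.32 ± 0.10, edgeR adjusted p = 1.56e-10). At 3 d it had 47.7 ± 4.95 CPM in α1ACT and 22.1 ± 2.63 CPM in vector (1.10 ± 0.09, adjusted p = 1.45e-09). Rph3a, rabphilin, an effector of Rab3a, was higher at the same times, by 1.08 ± 0.10 at 6 h and 0.96 ± 0.10 at 3 d. Syt4, a synaptotagmin of dense-core vesicles, was lower at those times, by -0.51 ± 0.08 and -0.72 ± 0.08. In the file names these are 24 h against 6 h in P and in Q11. Sytl4, granuphilin, which docks granules at the plasma membrane, was lower at 3 d than at 6 h and at 10 d than at 24 h in both lines, past the threshold in each. Its differences were -0.53 ± 0.09 and -0.46 ± 0.10 in α1ACT and -0.36 ± 0.09 and -0.79 ± 0.09 in vector. It was thus lower in Q11 than in P at each of the 4 file-name times.

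Among precursors, enzymes and regulators, Nucb1, a calcium-binding protein of the Golgi, had 392 ± 13.3 CPM in α1ACT 24 h and 711 ± 59.9 CPM in vector 24 h (log2 -0.86 ± 0.05, edgeR adjusted p = 2.65e-13). At 10 d it had 408 ± 2.91 CPM in α1ACT and 759 ± 30.1 CPM in vector (-0.90 ± 0.05, adjusted p = 1.10e-13). Nucb1 was also lower in α1ACT at 6 h (-0.17 ± 0.05) and 3 d (-0.18 ± 0.05), past the threshold at each. Furin was lower in α1ACT at 10 d, at 185 ± 7.03 CPM against 380 ± 141 CPM in vector (-1.04 ± 0.13, adjusted p = 3.47e-07). It was also lower at 24 h (-0.56 ± 0.14, adjusted p = 0.00106), and did not pass at 6 h or 3 d (0.31 ± 0.14 at each). Crem, a regulator that binds cAMP response elements, was higher in α1ACT at 24 h (0.63 ± 0.18) and at 10 d (1.50 ± 0.19) and lower at 3 d (-0.97 ± 0.19). Rest, a repressor of neuronal genes, was higher in α1ACT at 24 h (0.91 ± 0.25), at 2.85 ± 0.14 CPM in α1ACT and 1.50 ± 0.17 CPM in vector. Its differences at 6 h (-0.37 ± 0.23), 3 d (-0.14 ± 0.22) and 10 d (0.21 ± 0.22) did not pass. Adm, the precursor of adrenomedullin, was lower in α1ACT at 6 h, at 345 ± 11.3 CPM against 478 ± 8.78 CPM in vector (-0.47 ± 0.08, adjusted p = 5.24e-05). It was also lower at 24 h (-0.29 ± 0.08, adjusted p = 0.00382) and 3 d (-0.50 ± 0.08, adjusted p = 2.70e-05). At 10 d its difference of 0.13 ± 0.08 did not pass.

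Of 9302 genes compared over the 24 libraries, Adm had the log2 CPM pattern most like Vgf (Pearson r = 0.976), followed by Eps8l2 (0.976) and Ptprf (0.976), and 170 genes had an r over 0.9. Those most like Chgb were Ccny (0.943), Tpd52 (0.925) and Fam70b (0.903), the 3 genes with an r over 0.9. These are descriptions over libraries that share 8 groups.

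Of the other cell types checked, the immune list, most of it Cd68, had group means from 1.25 to 2.85 CPM. Its defining marker Ptprc was at 0 in all libraries, while Cd68 was detected in all 24, with 517 counts in all. Cd3e, Csf1r and Itgam had 29, 15 and 2 counts. The fibroblast list averaged 4.79 ± 1.42 CPM in α1ACT and 2.92 ± 0.70 CPM in vector at 3 d. At 24 h it averaged 0.893 ± 0.193 CPM in α1ACT and 1.37 ± 0.75 CPM in vector. At 10 d it averaged 1.86 ± 0.42 CPM in α1ACT and 0.765 ± 0.014 CPM in vector. The epithelial list, most of it Krt8, was lower in α1ACT at 6 h and 3 d, as Vgf was. It averaged 991 ± 76.8 CPM in α1ACT and 1607 ± 168 CPM in vector at 6 h. At 3 d these were 1001 ± 139 CPM and 1417 ± 260 CPM. At 24 h it was higher in α1ACT, unlike Vgf, at 658 ± 9.48 CPM against 483 ± 11.8 CPM in vector. At 10 d, where the Vgf difference did not pass, it averaged 708 ± 28.8 CPM in α1ACT and 488 ± 8.59 CPM in vector. The list of 6 cycling genes averaged 2628 ± 282 CPM in α1ACT and 1034 ± 170 CPM in vector at 24 h, and 2006 ± 93.9 CPM in α1ACT and 957 ± 90.4 CPM in vector at 10 d, the times at which Chgb and Scg2 passed. In the 4 groups of 6 h and 3 d its means ran from 2223 to 2809 CPM. The part of these lists in the results was not tested. By number, replicate 2 was the highest of its group in 6 of 8 groups for Chga, Scg3 and Vgf. It was the highest in 5 for Scg2 and Cpe, in 4 for Chgb and in 2 for Scg5. For Scg5 it was the lowest in 5.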

How the data were processed

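Total RNA of 24 PC12 libraries was sequenced, per the labels' protocols, as pairs of 100 bases in 3 lanes after stranded library preparation with depletion of ribosomal RNA. The authors deposited 1 table of raw read counts per gene symbol for each library. The submitters' processing notes name HTSeq 0.5.4p5, Picard 1.117, TopHat2 2.0.10, FastQC 0.11.2, edgeR and the genome build rn5. The sources used here give neither annotation nor strand setting, so overlapping antisense genes cannot be told apart. Library sizes exclude the 5 summary lines. Reads outside genes made up 47.8% to 52.9% of the sum of reads outside genes, ambiguous reads and counts on genes. Reads not aligned, not aligned uniquely or of low alignment quality are not in that sum.

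Counts were tested in edgeR 4.0.16 (R 4.3.3) by quasi-likelihood, with TMM factors (0.981 to 1.02), its filter by group (minimum count 10, minimum total 15) and a coefficient for each group. The 24 libraries shared this fit, which left 16 residual degrees of freedom. Adjustment was by Benjamini-Hochberg over 9994 genes, with a threshold of 0.05. CPM values are TMM-scaled. Alternatives were RLE factors, library sizes alone, no filter, DESeq2 1.42.0, the replicate block, fits of only the compared groups and leaving out replicates. The replicate block added the replicate number as a term shared by all 24 libraries. Where a group is left with fewer libraries, the spread is that of all groups.

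The members and lists were chosen with earlier results of these data known. All 10 members are named. Of the pathway list, the called genes with the largest rise and fall per comparison (at most 2 of each, mean of at least 2 CPM) could be named. The genes at 0 and Pcsk7, Pam, Cpd and Pcsk1n were named after their values were seen. The 2 mean comparisons were added after seeing the data. The replicate numbers were taken to pair libraries where every same-numbered correlation was over 0.1. This held only in the line comparison of 3 d (r = 0.124, 0.318 and 0.139). The line comparison of 6 h fell just short (0.164, 0.342 and 0.098). A reference table of assembly GRCr8 served for names (16568 of 17055 symbols matched, and all 10 members). The summed level of 1 further marker list is not reported here.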

Additional observations from a re-analysis of the deposited data

Results flagged for a closer look

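The line difference of Vgf was unequal over the 4 labelled times (edgeR interaction test, adjusted p = 2.43e-05), at -1.45, -0.49, -1.50 and 0.01 on the log2 scale at 6 h, 24 h, 3 d and 10 d. That of Chgb was unequal as well (adjusted p = 0.000766), at 0.14, 0.51, 0.03 and 0.50. By the file names, these 4 values are differences between times within a line, and the inequality of the differences between Q11 and P had an adjusted p of 0.590 for Vgf and 0.788 for Chgb.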

How the results depend on the processing

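Each result was recomputed with RLE factors, library sizes alone, no filter, DESeq2, the replicate block, only the groups compared (10 pairwise comparisons) and without replicates. In α1ACT against vector at 3 d the count of the 7 genes was 2 with RLE factors, no filter, DESeq2 or the block and 3 with only the 2 groups, against 1. In the mean of the later against the earlier times (3 d with 6 h, 10 d with 24 h) it was 2 with no filter, DESeq2 or the block, against 1, and for the inequality over labelled times 4 with RLE factors or DESeq2, against 2. Of all genes, vector 3 d against 6 h gave 226 with no filter and 258 with the block (147 in the fit reported), α1ACT 3 d against 6 h 193 with the block and 160 with 2 groups (106), vector 10 d against 24 h 314 (744) and α1ACT 10 d against 24 h 63 (462) with 2 groups. The inequality over file-name times gave 112 with no filter, 125 with DESeq2 and 47 with the block (4). The block moved no other count of the 7 genes by over 1.5 times. With the block, Scg2 passed at 6 h (adjusted p = 0.0476), Scg3 at 24 h (0.0448), at 10 d (0.0279), and between 24 h and 6 h in α1ACT (0.0267) and vector (0.0214), Cpe between 24 h and 6 h in α1ACT (0.0495), Vgf in the mean of the later against the earlier times (0.0315), and Scg5 in the inequality over labelled times (0.0446). Same-numbered libraries correlated by -0.032 to 0.342. In 9 of 10 comparisons not every correlation was over 0.1, the cut-off used here for pairing. The line comparison of 6 h fell just short of it, with correlations of 0.164, 0.342 and 0.098. With library sizes alone the difference of Vgf at 10 d was -0.0020.

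Without replicates, the count of the 7 genes ran from 1 to 4 at 6 h, 1 to 2 at 3 d, 2 to 5 for α1ACT 24 h against 6 h, 0 to 3 for vector 3 d against 6 h, 0 to 1 for α1ACT 3 d against 6 h, 0 to 2 for vector 10 d against 24 h, 1 to 3 for the mean of 3 d and 10 d, 1 to 4 for the inequality over labelled times and 0 to 2 for that over file-name times. Over all genes the counts ran from 2580 to 3985 at 6 h, 2449 to 3640 at 3 d, 2599 to 4545 for α1ACT 24 h against 6 h, 5 to 479 for vector 3 d against 6 h, 8 to 361 for α1ACT 3 d against 6 h, 79 to 1125 for vector 10 d against 24 h, 0 to 814 for α1ACT 10 d against 24 h, 314 to 2062 for the mean of 3 d and 10 d and 0 to 371 for the inequality over file-name times.

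Log2 differences that changed sign without replicates were all uncalled. They ran from -0.10 to 0.19 (Chga, 6 h), -0.091 to 0.40 (Cpe, 24 h), -0.098 to 0.012 (Scg5, 24 h), -0.023 to 0.081 (Chgb, 3 d), -0.068 to 0.27 (Cpe, 10 d) and -0.12 to 0.18 (Vgf, 10 d) between the lines. Between 3 d and 6 h in vector they ran from -0.092 to 0.59 (Cpe) and -0.13 to 0.00060 (Scg3). Between 10 d and 24 h they ran from -0.093 to 0.059 (Chgb) and -0.13 to 0.48 (Cpe) in α1ACT, and -0.066 to 0.12 (Chgb) and -0.073 to 0.045 (Scg3) in vector. Between 24 h and 6 h they ran from -0.044 to 0.16 (Chga) in α1ACT, and -0.27 to 0.080 (Chga), -0.10 to 0.020 (Chgb) and -0.061 to 0.41 (Cpe) in vector. Cpe in the mean of 3 d and 10 d ran from -0.013 to 0.35. The causes of these changes were not tested. At 29 to 95 counts per library, counting error bears on Cpe, and Npy, Pcsk1 and Pcsk2 were not tested.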
